A study of Mus musculus with 20 samples.

Results

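The genes described here are 8 neural determination transcription factors, *Vax1*, *Vax2*, *Sox1*, *Sox2*, *Foxd3*, *Nkx2-2*, *Olig2* and *Neurog2*, chosen by symbol from the 43280 genes counted in the mesenchyme of the mouse gut. Embryonic RNA-seq covered 8 libraries of mice at E13.5, with 2 libraries per genotype from the intestine and 2 per genotype from the stomach. The labels give the strain as C57BL/6, while the study's own summary lists mixed strain backgrounds, with floxed *Eed* and the reporter each on a mixed one. The control genotype was Bapx1-cre;Rosa26mTmG and the *Eed* KO genotype was Eedfl/fl;Bapx1-cre;Rosa26mTmG, so both carried the *Bapx1* Cre and the reporter in which Cre switches a cell and its descendants from membrane Tomato to membrane GFP, and in both the GFP+ cells were sorted. *Bapx1* (*Nkx3-2*) drives Cre in the mesenchyme of the primitive gut, so the deletion affected cells with a history of *Bapx1* expression. Adult RNA-seq covered 2 WT (control) and 2 EED-KO libraries of intestinal mesenchyme, which per the methods were GFP+ cells sorted from small intestine with the villi removed, from mice in which tamoxifen had activated a *Pdgfrβ*-driven Cre-ERT2, with floxed *Eed* in the EED-KO mice. ATAC-seq, which maps open chromatin with a transposase, gave 1 list of broad peaks for each of the 4 embryonic conditions, called on pooled replicates.

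PRC2 is a Polycomb complex that trimethylates histone H3 at lysine 27, and EED is the core subunit that binds this mark and keeps the enzyme active. Genes for transcription factors of other lineages, neural regulators among them, are classical PRC2 targets in embryonic cells, and their start sites usually lie in CpG-rich DNA. The 8 factors act at successive steps of neural development. *Sox1* and *Sox2* encode SOXB1 factors of neural progenitors, *Vax1* and *Vax2* encode homeodomain factors of the ventral forebrain and eye, *Nkx2-2* and *Olig2* pattern the ventral spinal cord, *Neurog2* is a proneural bHLH gene, and *Foxd3* is an early neural crest gene. *Sox2* and *Foxd3* also have roles outside the central nervous system, *Sox2* in foregut epithelium and both genes in the neural crest that forms enteric neurons and glia.

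Counts on genes per library ranged from 30236159 to 39606157 in the embryo and from 11404712 to 15903642 in the adult. Levels are given as CPM, the count of a gene scaled to the size of its library, after TMM scaling. A count of 0 in an embryonic library allows a level of up to 0.0757 to 0.0992 CPM before TMM scaling, depending on the library, if up to 3 counts could have been missed. Intervals and floors cover counting error only. The libraries of a group are described as biological replicates, without the number of embryos behind each, and the tests measure the spread between these libraries. *Eed*, the deleted gene, had a level of 38.1 and 40.1 CPM in the control intestine against 10.7 and 8.58 CPM in the *Eed* KO intestine, and 40 and 41.5 CPM in the control stomach against 11.5 and 7.40 CPM in the *Eed* KO stomach. It fell in both organs, with log2 fold changes of -2.02 ± 0.21 (SE, adjusted p = 0.00464) and -2.11 ± 0.21 (adjusted p = 0.00175, quasi-likelihood F-test of edgeR with Benjamini-Hochberg adjustment over 16218 tested genes). Scaled by the spike-ins, which moved the median log2 difference of all tested genes to 1.85 and 2.39, *Eed* was called in neither organ (-0.23, adjusted p = 0.761, and 0.14, adjusted p = 0.85). Counts are summed over the whole gene, so *Eed* RNA left in the *Eed* KO libraries may come from exons outside the deletion or from cells without it, which cannot be told apart.

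Mesenchymal identity was checked with 10 markers, all detected in every group, with a summed level of 13400 to 24800 CPM in embryonic libraries, led by *Col3a1* and *Col1a1*. Since 3 other cell types could carry RNA of these factors, their markers were summed as well. Enteric neural crest and glial markers summed to 209 to 221 CPM in control and 107 to 176 CPM in *Eed* KO intestine libraries, and to 63.9 to 77.1 CPM in control and 69.5 to 80.0 CPM in *Eed* KO stomach libraries. Most of this was *Ednrb*, while *Sox10*, the defining neural crest factor, had a mean between 0.553 and 0.830 CPM in the 4 groups (adjusted p = 0.951 in the intestine and 0.915 in the stomach for *Eed* KO against control). Of the 9 markers of this list that were tested, none was called in the intestine, and in the stomach the glial gene *S100b* rose (log2 fold change 2.24, mean 0.245 to 1.17 CPM, adjusted p = 0.0106) and *Fabp7*, a fatty acid binding protein of glia, fell (log2 fold change -1.96, mean 9.80 to 2.51 CPM, adjusted p = 0.0139). Epithelial markers summed to 66.5 to 117 CPM in control and 73.0 to 139 CPM in *Eed* KO libraries, led by *Krt19*. Of the 11 epithelial markers, *Foxa1* and *Esrp1* rose in both *Eed* KO organs and the other 9 did not pass the thresholds. The sum does not show the middle of this list. Its median log2 difference was 2.64 in the intestine and 1.80 in the stomach, against 0.01 and 0.00 over all tested genes. *Krt19* was at -0.60 and -0.40 and *Krt18* at -0.27 and -0.03. Pancreatic and endocrine markers summed to 5.53 to 8.68 CPM in control and 15.2 to 17.8 CPM in *Eed* KO intestine libraries, and to 44.0 to 68.5 CPM in control and 44.8 to 55.1 CPM in *Eed* KO stomach libraries, led by *Isl1*, with *Ptf1a* and *Ins1* at 0 counts in the 8 embryonic libraries. *Isl1* rose in the *Eed* KO intestine (adjusted p = 0.0348). The part of these cells in the results on the 8 factors was not tested, and in bulk RNA fewer cells of a type and less RNA per cell cannot be told apart.

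The comparison of *Eed* KO with control mesenchyme asks which of these factors change when PRC2 is lost in a tissue that does not form neurons. In the control libraries 3 of the 8 factors had any count, *Sox2*, *Foxd3* and, with a single read in the control stomach, *Nkx2-2*. After *Eed* deletion 7 of 8 had counts in the stomach and 6 of 8 in the intestine. *Vax2* and *Sox2* rose in both organs, and *Vax1* and *Nkx2-2* rose in the stomach. *Foxd3* and *Sox1* did not pass the thresholds in either organ, *Neurog2* was too low to test, and *Olig2* had no count in any library. A gene was called when its adjusted p was under 0.05 and its log2 fold change was above 1 in size. By these thresholds 2 of the 6 tested factors were called in the intestine and 4 of 6 in the stomach, all higher in *Eed* KO, where over all tested genes 2.38% were called higher in the intestine and 4.84% in the stomach. *Vax1*, *Vax2* and *Sox1* had no control counts and *Nkx2-2* had 1, so all of these passed the low-count filter through the *Eed* KO libraries alone. The shares of called factors therefore cannot be read against the background as they stand.

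**Figure D1:**
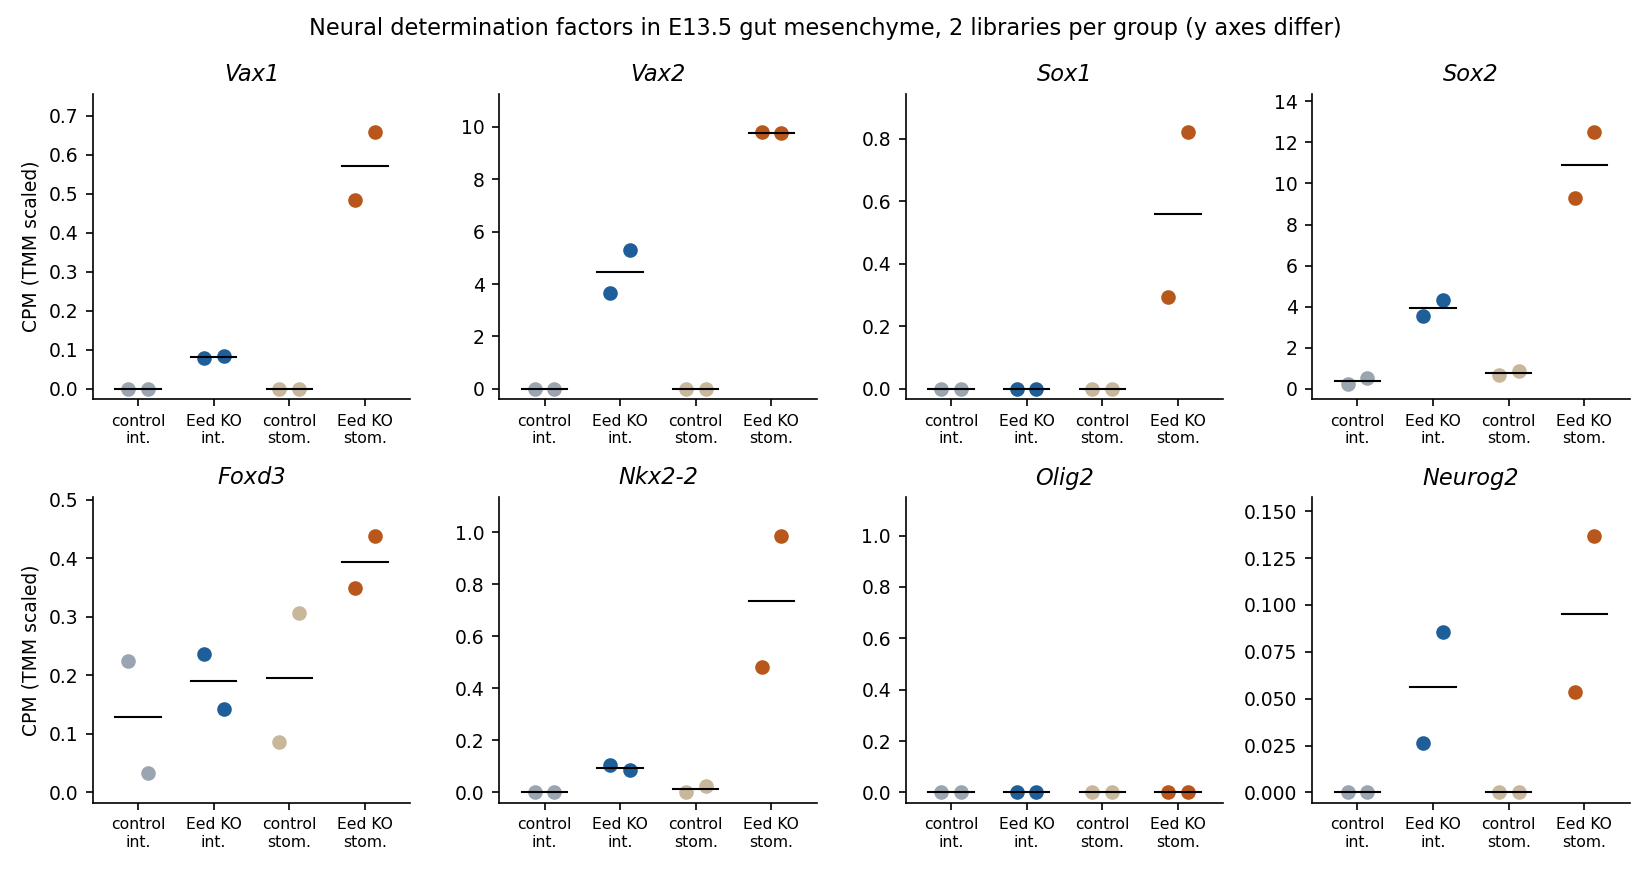
Level of each factor (y axis, CPM after TMM scaling, with a separate scale per gene) in the 2 libraries (points) of each E13.5 group (x axis: int., intestine; stom., stomach), with the group mean as a line. Vax2 lies at 3.67 to 9.79 CPM in the Eed KO libraries and at 0 in the controls, Sox2 reaches 12.5 CPM in the Eed KO stomach, and Olig2 is at 0 throughout.

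Of the eye and ventral forebrain genes, *Vax2* gave the clearest change. Its level was 3.67 and 5.28 CPM in the *Eed* KO intestine (139 and 185 counts). The *Eed* KO stomach libraries reached 9.79 and 9.76 CPM (365 and 356 counts), with 0 counts in the 4 control libraries. No control library overlapped an *Eed* KO library. Set against 3 counts over the control group, the pooled level was at least 96.7-fold higher in the intestine (adjusted p = 0.0029, edgeR) and at least 240-fold higher in the stomach (adjusted p = 7.71e-04). *Vax2* is on chromosome 6 (83711264 to 83738313, plus strand, GRCm38/mm10) and shares its locus with *Vax2os*, an RNA of the opposite strand whose exons do not overlap those of *Vax2* in the annotation used for counting. *Vax2os* had 16 and 19 counts in intestinal and 37 and 47 in gastric *Eed* KO libraries, and 0 in the controls, so both genes of the locus were seen in the same libraries.

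*Vax1*, the paralog of *Vax2* on chromosome 19 (59166187 to 59170056, minus strand), followed the same order at a much lower level. It had 3 counts in each *Eed* KO intestine library (0.0791 and 0.0856 CPM). The *Eed* KO stomach libraries held 18 and 24 counts (0.483 and 0.658 CPM), and the controls 0. The stomach groups did not overlap, and *Vax1* rose there by at least 14-fold (adjusted p = 0.0128, edgeR). That call was lost without *Eed* KO stomach replicate 2 or either control stomach library (adjusted p = 0.0501 to 0.0684). In the intestine its 6 counts against 0 gave a level at least 1.79-fold that of the control, without passing the test (adjusted p = 0.20).

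Of the SOXB1 genes, *Sox2*, which maintains neural progenitors and foregut epithelium, had a measurable level in every embryonic library. In the intestine it was 0.225 and 0.538 CPM in control and 3.53 and 4.33 CPM in *Eed* KO libraries, and in the stomach 0.666 and 0.867 CPM in control and 9.28 and 12.5 CPM in *Eed* KO libraries. Each *Eed* KO library was above both controls of its organ. The log2 fold change was 3.39 ± 0.38 in the intestine (SE, adjusted p = 0.00615) and 3.82 ± 0.34 in the stomach (adjusted p = 0.00118, edgeR), which in pooled counts was a 10.7-fold rise (95% counting interval 7.03 to 16.9) and a 14.1-fold rise (10.7 to 18.7). Without replicate 1 of the control intestine the adjusted p for the intestine was 0.0504. *Sox2* is a gene of 1 exon on chromosome 3 (34650005 to 34652461, plus strand).

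*Sox1*, which marks the neural plate more narrowly than *Sox2*, is another gene of 1 exon, on chromosome 8 (12395295 to 12400126, plus strand). Its reads came from the *Eed* KO stomach alone, 11 and 30 counts (0.295 and 0.822 CPM), with 0 counts in the other 6 embryonic libraries. The pooled level in the *Eed* KO stomach was at least 13.7-fold that of the control, but the 2 libraries differed and the test missed the threshold (adjusted p = 0.0618, edgeR). That call turned with the settings, since *Sox1* passed without the low-count filter (adjusted p = 0.00428) and with the replicate number as a block (adjusted p = 0.0243), and with DESeq2 it did not (adjusted p = 0.469). No count was seen in the *Eed* KO intestine.

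Of the ventral spinal cord genes, *Nkx2-2* encodes the homeodomain factor of the most ventral progenitors and *Olig2* the bHLH factor of motor neuron and oligodendrocyte precursors. *Nkx2-2* had 4 and 3 counts in the *Eed* KO intestine (0.105 and 0.0856 CPM) against 0 in its controls. The stomach gave 18 and 36 counts with *Eed* KO (0.483 and 0.987 CPM) against 0 and 1. The groups did not overlap in either organ. In the stomach *Nkx2-2* rose, with a log2 fold change of 5.44 ± 0.87 (SE, adjusted p = 0.0162, edgeR), a ratio of 54 in pooled counts that rests on a single control read and has a 95% counting interval of 9.29 to 2170. The call was lost without *Eed* KO stomach replicate 2 or either control stomach library (adjusted p = 0.0752 to 0.093). In the intestine its level was at least 2.09-fold that of the control and did not pass the test (adjusted p = 0.246). Its exons overlap those of the opposite-strand gene *Nkx2-2os* over 278 bp, and *Nkx2-2os* had no count in any embryonic library. *Olig2* on chromosome 16 (91225550 to 91228677, plus strand) was at 0 counts in the 8 libraries, so a change of *Olig2* was not detectable at this depth.

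*Neurog2*, the proneural gene that starts neuronal differentiation, lies on chromosome 3 (127633136 to 127635631, plus strand). Its counts were 1 and 3 with intestinal *Eed* KO (0.0264 and 0.0856 CPM), 2 and 5 with gastric *Eed* KO (0.0536 and 0.137 CPM) and 0 in the controls. The libraries of the 2 genotypes did not overlap, yet these few reads were under the low-count filter, and their bounds were at least 1.19-fold in the intestine and at least 2.33-fold in the stomach. Tested without the filter, *Neurog2* did not pass in either organ (adjusted p = 0.774 and 0.303, edgeR).

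*Foxd3*, the neural crest gene, was present at a low level in all 8 embryonic libraries, as was *Sox2*. In the intestine its level was 0.225 and 0.0336 CPM in control and 0.237 and 0.143 CPM in *Eed* KO libraries, and in the stomach 0.0869 and 0.306 CPM in control and 0.349 and 0.439 CPM in *Eed* KO libraries. The intestinal groups overlapped and the stomach groups did not. The log2 difference was 0.49 ± 0.86 in the intestine (SE, adjusted p = 0.918) and 0.96 ± 0.71 in the stomach (adjusted p = 0.476, edgeR), and the 95% counting intervals of the ratio, 0.561 to 3.65 and 1.00 to 3.88, leave room for a rise of more than 3-fold in both organs. *Foxd3* is a gene of 1 exon on chromosome 4 (99656299 to 99658622, plus strand).

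**Figure D2:**
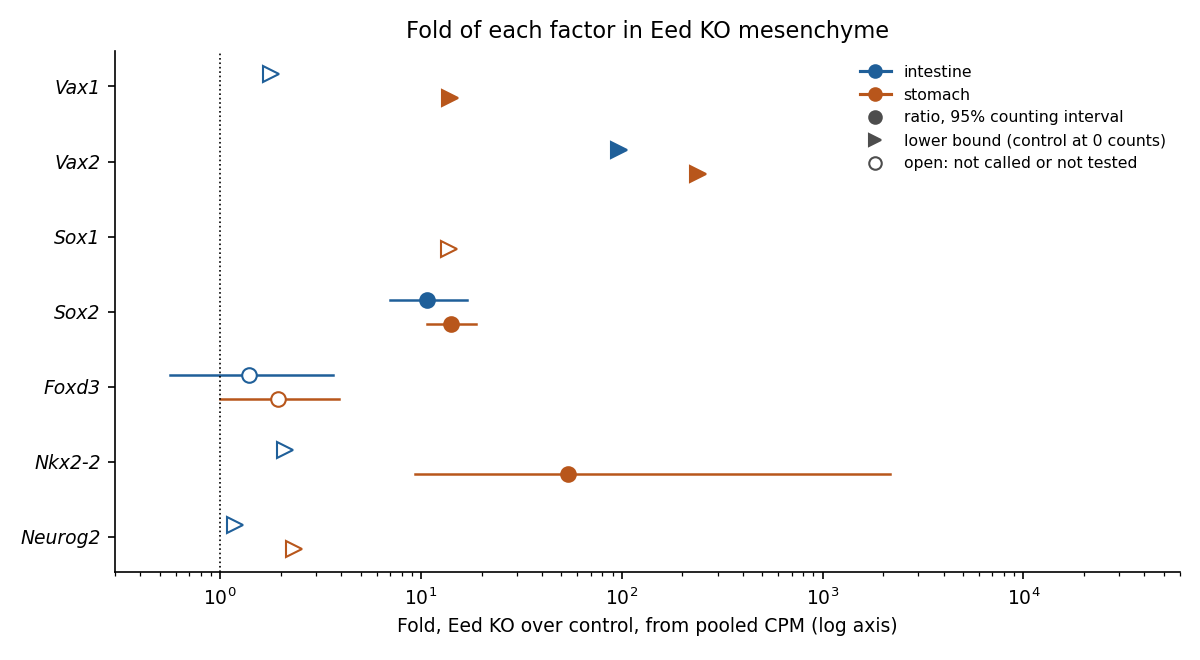
Fold of each factor in Eed KO over control mesenchyme (x axis, log scale, from counts pooled over the 2 libraries of a group), for the intestine (blue) and stomach (orange). Circles are ratios with their 95% counting interval, triangles are lower bounds against 3 counts where the controls had none, filled symbols passed the test and open symbols did not or were not tested. Olig2 has no count, and Sox1 has no symbol in the intestine for the same reason. The bound of Vax2 lies at 96.7 in the intestine and 240 in the stomach.

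To compare levels between the genes, counts were divided by gene length and given as TPM, a level per unit of transcript length. *Vax2* had the highest level in the *Eed* KO stomach, 25.2 ± 0.667 TPM (mean ± SD, n = 2), followed by *Sox2* at 14.3 ± 3.38 TPM, *Vax1* at 1.64 ± 0.402 TPM, *Nkx2-2* at 0.825 ± 0.421 TPM, *Foxd3* at 0.544 ± 0.103 TPM, *Sox1* at 0.374 ± 0.258 TPM and *Neurog2* at 0.139 ± 0.0889 TPM. In this order *Vax2*, *Sox2*, *Vax1* and *Nkx2-2* did not overlap between neighbours, while the libraries of *Nkx2-2*, *Foxd3*, *Sox1* and *Neurog2* each overlapped those of the next gene. *Vax2* at 11 ± 3.17 TPM and *Sox2* at 4.87 ± 0.874 TPM again led in the *Eed* KO intestine, and the other 6 factors were each below 0.3 TPM on average. In the controls the highest level was that of *Sox2*, 0.948 ± 0.173 TPM in the stomach and 0.468 ± 0.281 TPM in the intestine, followed by *Foxd3* at 0.256 ± 0.202 and 0.165 ± 0.17 TPM.

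The difference between organs was examined within each genotype. Between the control organs none of the 6 tested factors was called at an adjusted p under 0.05 with edgeR (background 5.07% of tested genes called in either direction), although *Sox2* was 2.1-fold higher in the control stomach without overlap and had an unadjusted p of 0.041 (log2 difference of intestine minus stomach -1.04 ± 0.42, SE, adjusted p = 0.252). It was the one factor with an unadjusted p under 0.05 there, and DESeq2 called none. *Vax1*, *Vax2* and *Sox1* had no count in either control organ and *Nkx2-2* had a single read, so none of these could have been called. The comparison of the control organs thus covers *Sox2* and *Foxd3* alone, and its lack of calls cannot be read against the background. Between the *Eed* KO organs each detected factor had a higher mean in the stomach. *Sox2* was 2.77-fold higher (95% counting interval 2.42 to 3.19, log2 difference -1.47 ± 0.29, adjusted p = 0.029), *Vax1* 6.93-fold (2.93 to 19.9, adjusted p = 0.0466) and *Nkx2-2* 7.63-fold (3.46 to 19.9, adjusted p = 0.0495), and these 3 were called where 2.94% of all tested genes were called higher in the *Eed* KO stomach. *Vax1*, *Sox1* and *Nkx2-2* had at most 4 counts in any embryonic library outside the *Eed* KO stomach, so they passed the low-count filter through that group. The share of called factors therefore cannot be read against this background as it stands. *Vax2* was 2.20-fold higher in pooled counts (1.93 to 2.52) and missed the threshold (adjusted p = 0.0617), as did *Sox1* (adjusted p = 0.0716) and *Foxd3* (2.05-fold, adjusted p = 0.501). With DESeq2 *Vax2* was called (adjusted p = 0.00558) and *Vax1* and *Nkx2-2* were not (adjusted p = 0.198 and 0.0924), and with the size factors of DESeq2 in edgeR *Nkx2-2* was not (adjusted p = 0.0508). With any 1 of the 4 *Eed* KO libraries left out, none of the factors was called between the organs, and with the replicate number as a block *Vax2* and *Sox1* were called in addition (adjusted p = 0.0294 and 0.0295).

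Whether the effect of *Eed* deletion itself differed between organs was tested as an interaction, at an adjusted p under 0.2. For *Sox2* the log2 fold change in the intestine minus that in the stomach was -0.43 ± 0.53 (SE, adjusted p = 1, edgeR) and for *Foxd3* it was -0.47 ± 1.14 (adjusted p = 1). No factor was called, against 0.462% of all tested genes, none had an unadjusted p under 0.05, and DESeq2 called none. For *Vax1*, *Vax2* and *Sox1* the ratio of the 2 effects has no defined size because both control groups were at 0, and for *Nkx2-2* it rests on 1 read. The interaction test could therefore not have called *Vax1*, *Vax2* or *Sox1*, and their lack of a call cannot be read against the background.

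The wider family of neural transcription factors was described with a list of 40 other patterning and proneural genes. Of these, 16 passed the low-count filter and 4 had no count in any embryonic library. With *Eed* KO 9 of 16 rose in the intestine, 0 fell and 7 did not pass, and in the stomach 14 of 16 rose, 0 fell and 2 did not pass, against the 2.38% and 4.84% of all tested genes called higher. The median log2 difference over the 16 genes was 3.37 in the intestine and 4.12 in the stomach with genes at 0 in a group set to their bound (4.50 and 5.17 as fitted), and 0.01 and 0.00 over all tested genes. Some of the 16 passed the low-count filter through the *Eed* KO libraries alone, *En2* and *Six3* with no control counts among them, so neither these counts nor the medians can be read against all tested genes as they stand. In the intestine the count rested on both controls, since 2 of the 16 were called when either control intestine library was left out.

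The 6 genes named from this list include the midbrain and hindbrain factors *En1* and *En2*, the eye and forebrain factors *Pax6*, *Six3* and *Otx1*, and the forkhead gene *Foxd1*. *Pax6* was at 0.712 and 2.22 CPM in the *Eed* KO intestine and 8.53 and 10.0 CPM in the *Eed* KO stomach, with 1 count in the 4 controls. It rose in both organs (adjusted p = 0.0261 and 0.00281, edgeR). *Foxd1*, the paralog of *Foxd3* that is expressed in the retina and kidney stroma, had a level of 6.67 and 9.50 CPM in the *Eed* KO intestine against 0.253 and 0.101 CPM, and 11.7 and 18.0 CPM in the *Eed* KO stomach against 0.145 and 0.0765 CPM. Its log2 fold changes were 5.44 ± 0.44 (adjusted p = 0.0021) and 7.05 ± 0.46 (adjusted p = 3.97e-04), where *Foxd3* did not pass in the same libraries. *En1* rose in both organs, with 78 counts against 1 in the intestine (adjusted p = 0.0436) and 364 against 0 in the stomach (adjusted p = 0.00448), and *En2* rose with 31 against 0 (adjusted p = 0.0477) and 219 against 0 (adjusted p = 0.00407). *Otx1* and *Six3* rose in the stomach (114 counts against 1, adjusted p = 0.0048, and 101 against 0, adjusted p = 0.0088) and did not pass in the intestine (adjusted p = 0.0907 and 0.336).

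**Figure D3:**
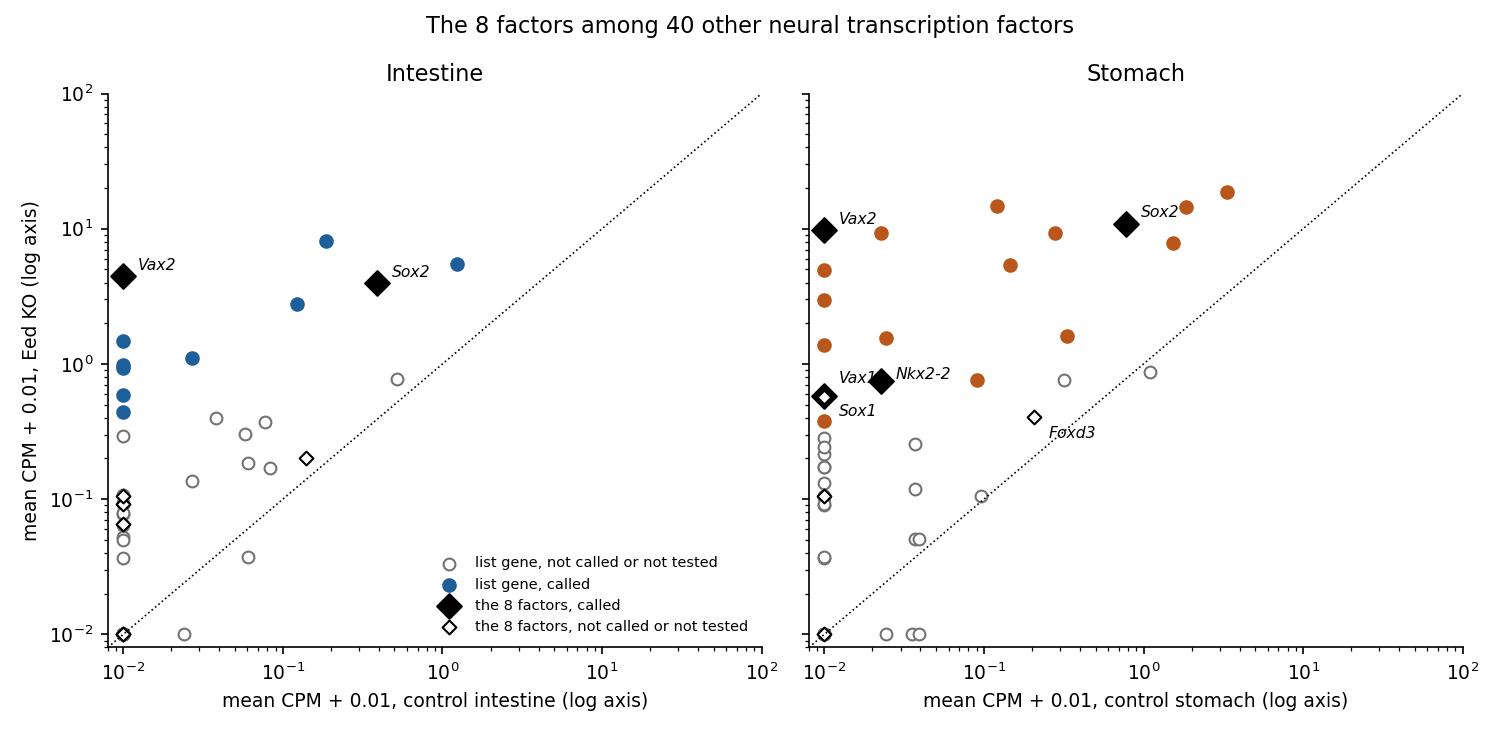
Mean level in control (x axis) against Eed KO (y axis) mesenchyme, as CPM + 0.01 on log scales, for the intestine (left) and stomach (right). Circles are the 40 other neural transcription factors, filled where called, and diamonds are the 8 factors, large and filled where called. Vax2 sits on the left edge at 4.47 and 9.77 CPM with no control reads, and Vax1 and Sox1 lie on each other in the stomach at 0.570 and 0.559 CPM.

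Genes of neuronal differentiation, which act downstream of such factors in the nervous system, were listed separately (20 genes, 17 tested). With *Eed* KO 2 of 17 rose in the intestine, *Stmn2* and *Ina*, and 0 fell, where 2.38% of all tested genes were called higher and 0.228% lower. Stomach libraries differed in both directions, since 3 rose, *Stmn2*, *Stmn3* and *Nefm*, 2 fell, *Gap43* among them, and 12 did not pass, where 4.84% of all tested genes were called higher and 0.808% lower. The median log2 difference was 0.88 in the intestine and 0.27 in the stomach, against 0.01 and 0.00 over all tested genes. *Stmn2*, a regulator of microtubules in growing axons, was at 22.7 and 11.2 CPM in the *Eed* KO intestine against 1.21 and 1.35 CPM, and 38.5 and 44.2 CPM in the *Eed* KO stomach against 5.27 and 4.05 CPM (log2 fold changes 3.73 ± 0.36, adjusted p = 0.00346, and 3.15 ± 0.33, adjusted p = 0.00219, edgeR). *Gap43*, a protein of growth cones, fell in the stomach from 13.3 and 13.7 CPM to 4.80 and 4.39 CPM (log2 fold change -1.55 ± 0.15, adjusted p = 0.00141). *Tubb3*, the neuronal tubulin, did not pass in either organ (adjusted p = 0.585 and 0.224), and *Rbfox3*, which encodes the neuronal nuclear antigen NeuN, did not either (adjusted p = 0.214 and 0.691).

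The genes with the most similar profiles were found by Pearson correlation of log2 CPM over the 8 embryonic libraries, which share their groups, so that r is a description here. The profile of *Vax2* was closest to those of *Hoxb13* (r = 1.000), the most posterior gene of the *Hoxb* cluster, and *Cdkn2a* (r = 0.997), a cell cycle inhibitor locus. *Hoxb13* had means of 7.66 CPM in the *Eed* KO intestine, 16.1 CPM in the *Eed* KO stomach and 0 in both control groups. *Sox2* was closest to *Foxc1* (r = 0.995), a mesodermal forkhead gene, at 0.51 CPM in the control and 5.00 CPM in the *Eed* KO intestine and 1.24 and 16.3 CPM in the stomach, and to *Maneal* (r = 0.994). *Vax1* and *Nkx2-2* shared the nearest gene, *Nkx2-9* (r = 0.998 and 0.988), a close relative of *Nkx2-2* in the ventral neural tube, with *Slc35d3* (r = 0.992) next for *Vax1* and *Prom2* (r = 0.985) next for *Nkx2-2*. *Sox1* was closest to *Slc36a1* (r = 0.991) and *Kcnh1* (r = 0.978), and *Foxd3* had the weakest matches, *Dpy19l2* (r = 0.946) and *Pcyt2* (r = 0.933). A high r does not mean a like level or size of change. *Slc36a1* had means of 17.4 CPM in both intestine groups, 17.5 CPM in the control stomach and 24.5 CPM in the *Eed* KO stomach. *Pcyt2* had group means of 19.5 to 22.3 CPM. Among the 6 tested factors themselves r ranged from 0.549 between *Vax2* and *Foxd3* to 0.989 between *Vax1* and *Nkx2-2*.

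The start sites of the 8 factors were then examined in the ATAC-seq peak lists, to ask whether genes silent in the controls lay in closed chromatin. Each of the 8 had a broad peak within 1000 bp of the start of its gene model in each of the 4 lists. These include *Olig2*, *Vax1*, *Vax2*, *Sox1* and *Neurog2*, which had no RNA in the controls. At *Nkx2-2* the start of the model lies 7841 bp from the RefSeq start. The 250 bases upstream of that RefSeq start lay in a peak in the *Eed* KO stomach list and in no other. A peak in all 4 lists was found at 87.0% of 16191 tested genes with a placed start site, but at 8.02% of 4539 protein-coding genes with no count in the 4 control libraries. Of the 40 other neural transcription factors, 36 had a peak in all 4 lists, and so did 15 of the 18 that were without control counts. When peaks needed a -log10 q of 5 or more, the number of factors with a peak in all 4 lists was 5 of 8. The factors lost were *Vax1*, *Sox1* and *Olig2*, each without RNA in the controls, with a lowest -log10 q of 4.4, 3.79 and 3.8. Of the factors without control RNA, *Vax2* and *Neurog2* thus kept a peak in all 4 lists. The share over all genes at this threshold was not counted.

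The peaks were long and of modest height. Fold enrichment over the MACS2 background had a median over the 8 factors of 3.41 in control and 3.26 in *Eed* KO intestine, and of 3.35 in control and 3.29 in *Eed* KO stomach, where the median promoter peak of the tested genes was between 6.46 and 6.91. At protein-coding genes without control counts that had a promoter peak, the median was between 3.53 and 4.16. The median length at the 8 factors was between 2046 and 2197 bp in the 4 lists. It was 1103 to 1208 bp at the tested genes and 756 to 848 bp at the protein-coding genes without control counts. The *Vax2* peak had a fold enrichment of 5.17 in control and 4.91 in *Eed* KO intestine, and of 4.32 in control and 5.19 in *Eed* KO stomach, so a gene with 0 control counts had the highest peak of the 8 in the control intestine, and *Neurog2*, also at 0, had the highest in the control stomach (4.85). At *Sox2* the enrichment was 3.58, 3.55, 3.74 and 3.33 in the same order, while the peak was 2217 and 1968 bp long in the control intestine and stomach and 3468 and 3462 bp in the *Eed* KO lists, where it reached further upstream. At *Olig2* the order was reversed in the stomach, with a peak of 2643 bp in the control and 737 bp in the *Eed* KO list. The *Vax1* peak of the *Eed* KO intestine ended 337 bp inside the gene, and the *Neurog2* peaks of the *Eed* KO intestine and the control stomach began 50 and 8 bp inside it. There is 1 list per condition and no read count, so none of these differences could be tested.

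The DNA at these start sites is shown because these sites had peaks with or without RNA from the gene. RefSeq promoters (GRCm38.p6, 250 bases before to 50 after the start) were matched for 7 of the 8 genes, *Vax2* being the exception. Counted on either strand, since CG reads the same on both, they held 10 to 37 CG dinucleotides with a median of 25, against a median of 7 and quartiles of 3 and 21 over 27025 mouse promoters, of which 94.2% hold at least 1 CG and 43.9% hold 10 or more. *Sox1* had the most with 37 and more than 94.6% of promoters, followed by *Sox2* with 27, *Foxd3* and *Olig2* with 25, *Vax1* and *Nkx2-2* with 17 and *Neurog2* with 10. The RefSeq start was that of the gene model used for counting at *Foxd3*, *Olig2* and *Neurog2*. It lay 7841 bp inside the model at *Nkx2-2*, 224 bp inside at *Sox1*, and 10 and 341 bp upstream of the model at *Sox2* and *Vax1*, and the peaks above were placed by the start of the model. Of the *Sox1* stretch below, 224 bases thus lie in the exon of that model. The 250 bases upstream of the RefSeq start are printed 5′ to 3′ on the strand of the gene, with CG dinucleotides in capitals. They are given for the 2 SOXB1 genes, for *Olig2*, which gave no RNA in any library, and for *Neurog2*, which has the fewest CG in the promoters counted above.
Sox1, chr8:12395269-12395518, plus strand: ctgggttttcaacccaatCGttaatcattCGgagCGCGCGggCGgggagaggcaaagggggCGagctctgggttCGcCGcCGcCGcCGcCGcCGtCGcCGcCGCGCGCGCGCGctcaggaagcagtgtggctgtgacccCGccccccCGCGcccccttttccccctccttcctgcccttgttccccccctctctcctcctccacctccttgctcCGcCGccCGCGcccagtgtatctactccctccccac
Sox2, chr3:34649745-34649994, plus strand: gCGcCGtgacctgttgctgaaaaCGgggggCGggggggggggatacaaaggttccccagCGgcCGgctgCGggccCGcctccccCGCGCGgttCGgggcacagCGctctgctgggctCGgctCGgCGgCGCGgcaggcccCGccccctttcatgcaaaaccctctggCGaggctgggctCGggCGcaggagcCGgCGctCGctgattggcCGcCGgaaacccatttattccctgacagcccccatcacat
Olig2, chr16:91225300-91225549, plus strand: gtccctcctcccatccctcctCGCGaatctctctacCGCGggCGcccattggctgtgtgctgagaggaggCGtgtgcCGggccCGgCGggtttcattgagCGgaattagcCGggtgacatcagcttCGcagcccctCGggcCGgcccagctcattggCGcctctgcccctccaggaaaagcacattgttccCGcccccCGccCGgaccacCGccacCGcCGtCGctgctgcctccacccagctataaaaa
Neurog2, chr3:127632886-127633135, plus strand: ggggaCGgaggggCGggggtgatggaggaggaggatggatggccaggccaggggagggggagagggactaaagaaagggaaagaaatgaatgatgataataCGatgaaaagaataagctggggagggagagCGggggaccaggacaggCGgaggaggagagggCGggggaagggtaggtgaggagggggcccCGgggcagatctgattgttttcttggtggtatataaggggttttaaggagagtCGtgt
The stretches of *Sox1*, *Sox2* and *Olig2* lie within a peak over all 250 bases in the 4 lists, while that of *Neurog2* lies within the peak in the control intestine and the *Eed* KO stomach and outside it in the other two. *Sox2* and *Olig2* thus had 27 and 25 CG in the promoters counted above (27 and 22 in the stretches printed) and a peak in each list. *Sox2* had RNA in every embryonic library and *Olig2* in none.

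In the adult intestine none of the 8 factors could be tested. All were at 0 counts in the 4 libraries except *Vax2*, with a single count in 1 EED-KO library (0.0772 CPM after TMM scaling). At the depth of these libraries 3 counts correspond to 0.189 to 0.263 CPM before TMM scaling, so a level like that of *Vax1* in the embryonic *Eed* KO intestine would not be detectable. The levels of *Vax2* and *Sox2* in the embryonic *Eed* KO intestine, with means of 4.47 and 3.93 CPM, are above that limit, although embryonic and adult libraries were made with different kits and normalized apart. *Eed* itself was at 29.7 and 33.4 CPM in the adult control and 25.6 and 25 CPM in the libraries labelled EED-KO, without overlap. It did not pass the test after TMM scaling (log2 difference -0.32 ± 0.21, SE, adjusted p = 0.317, edgeR), unlike in the embryo. The size of this difference depended on the scaling. As TPM, without TMM scaling, *Eed* was at 34.8 and 38.1 in the control and 21.2 and 18.6 in the EED-KO libraries. With spike-in scaling the log2 difference was -0.76 (adjusted p = 0.355, edgeR), where the median of all tested genes was -0.42. The paper reports the efficiency of the *Eed* deletion in these cells from a separate measurement. The adult mesenchymal markers summed to 11400 to 11900 CPM in the control and 3480 to 4970 CPM in the EED-KO libraries, and their part in the absence of the factors was not tested.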

How the data were processed

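RNA libraries were trimmed (Trimmomatic 0.32), aligned to GRCm38/mm10 with spike-in sequences (STAR 2.5.1b) and counted on GENCODE vM4 (featureCounts) by the authors, who deposited raw counts for 43280 genes and the spike-ins, without normalization. The embryonic poly(A) libraries were made with a directional kit, and the strand setting of their counting is not given in the sources used here. Adult counts are unstranded per the file headers. ATAC-seq reads were aligned with BWA 0.7.8 and pooled by condition, and the deposited broad peaks of MACS2 2.1.2 carry a fold enrichment (a ratio over background). The authors' -log10 q of each peak was used for the thresholds.

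The test on counts was edgeR's quasi-likelihood F-test (edgeR 4.0.16, R 4.3.3, limma 3.58.1) after TMM scaling and filterByExpr, in 1 fit of the 8 embryonic libraries (16218 genes tested) and 1 of the 4 adult libraries (15039 genes tested). Called genes had an adjusted p below 0.05 and a change beyond 1 on the log2 scale, with an adjusted p under 0.2 for the interaction. With 2 libraries a group, an exact permutation test of a single gene cannot give a two-sided p below 0.333. Where a group had 0 counts, folds are lower bounds against 3 counts over the group, and other ratios of pooled counts have exact 95% counting intervals. TPM used the gene lengths of the adult files. A promoter was 1000 bp on either side of the first annotated start, in the build of the files. Tables were made with pandas 2.3.3 and scipy 1.17.1 in Python 3.11.15.

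Named genes are the 8 factors, *Eed*, up to 6 genes of each other list that were called and had at least 1 CPM in an *Eed* KO group, ranked by fold change, and the 2 genes most like each factor. Where 5 or fewer genes of a list were called, most are named after their values were seen, as are *Tubb3*, *Rbfox3*, *Sox10* and the genes on the other strand. Some list genes are counted but their values are not reported here. The factors, lists and tests were chosen with earlier results of these data known. Alternatives were size factors of DESeq2 in edgeR, spike-in scaling, DESeq2 1.42.0, DESeq2 with 1 RUVg factor, no low-count filter, fits of the compared groups alone, a replicate block, leaving out each library, and other promoter windows and peak thresholds.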

Additional observations from a re-analysis of the deposited data

How the results depend on the processing

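*Vax2* in both *Eed* KO organs and *Sox2* in the *Eed* KO stomach kept their call under the 11 alternatives run for each (adjusted p at most 0.0235, 0.0073 and 0.0177). The number of factors called was 2 in the *Eed* KO intestine and 4 with spike-in scaling, and 1 to 2 with a library left out (1 without control intestine replicate 1). In the *Eed* KO stomach it was 4, with 5 for no low-count filter, for the compared groups alone and for the replicate block, *Sox1* being the addition in each, 6 for spike-in scaling, 2 with DESeq2 and 1 RUVg factor, which gave no adjusted p for *Vax1* and *Nkx2-2*, and 2 to 4 with a library left out, *Vax1* and *Nkx2-2* then having an adjusted p of 0.0501 to 0.093 without *Eed* KO stomach replicate 2 or either control stomach library. Between the *Eed* KO organs it was 3, with 5 for no low-count filter, 1 for spike-in scaling, 0 for the 2 compared groups alone and 0 with each library left out in turn. Same-numbered libraries had deviations with a correlation of 0.854 between the *Eed* KO organs and 0.249 to 0.432 for the other group pairs, and the labels do not say what the numbers share. With the replicate block, and with a replicate block within genotype, 5 factors were called between the *Eed* KO organs.

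For the 40 neural transcription factors, 9 were called higher in the *Eed* KO intestine, with 4 for the compared groups alone, 16 for spike-in scaling and 2 to 9 with a library left out. In the *Eed* KO stomach 14 were called, with 9 for DESeq2 with 1 RUVg factor and 10 to 11 with a library left out. For the neuronal genes, 2 were called higher in the intestine, with 1 for DESeq2 with 1 RUVg factor, 1 for the compared groups alone, 13 for spike-in scaling and 0 to 2 with a library left out, and 3 in the stomach, with 1, 15 and 1 for the RUVg factor, spike-in scaling and left-out libraries. Factors with a promoter peak in all 4 lists fell from 8 to 5 at a -log10 q of at least 5, with *Vax1*, *Sox1* and *Olig2* lost. The cause of these changes was not tested.

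Spike-in scaling moved the median log2 difference of all tested genes to 1.85 in the intestine and 2.39 in the stomach. On that scale the fall of *Eed* was not called in either organ, with -0.23 in the intestine (adjusted p = 0.761). It was at 0.14 in the stomach, 0.23 between control organs, -0.15 between *Eed* KO organs and -0.38 in the interaction, each of these 4 with its sign turned and without a call. *Sox2* at 5.31 and 6.28 passed and stayed above the shift, and *Foxd3* was called in the stomach at 3.30 (adjusted p = 0.00401). Signs also turned for *Eed* with 1 RUVg factor (0.05 between control organs, -0.01 between *Eed* KO organs, -0.06 in the interaction) and with a library left out (-0.24 to 0.38 between *Eed* KO organs, -0.18 to 0.44 in the interaction, with -0.14 and -0.09 without *Eed* KO intestine replicate 1). *Foxd3* ranged with a library left out from -0.23 to 2.38 in the intestine, from -2.46 to 0.63 between control organs (0.16 without control intestine replicate 2) and from -1.67 to 1.42 in the interaction (0.13 without control stomach replicate 1), and the interaction of *Sox2* from -0.97 to 0.29. None of the values with 1 RUVg factor or a library left out in these last 2 sentences passed the test. At this depth *Olig2* had no count and *Neurog2* was under the low-count filter.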
